A study of Mus musculus with 12 samples.

Results

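The growth arrest-specific ligand Gas6, the related ligand Pros1 (protein S) and their receptors Axl, Tyro3 and Mertk were examined in C18-4 cells. They are 5 of the 17576 genes of the expression table, taken by gene symbol, and all 5 passed the filter that left 11435 genes for testing. The set was chosen by measured values, since Gas6 was among the genes with the largest rise in the knockdown group against its control. Values of that comparison, and of the comparison of the 2 controls, are therefore given for the 5 genes as a description without a test.

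C18-4 is an immortalized mouse spermatogonial line, labelled here with the strain as IRC mouse, and was kept in DMEM/F12 medium with serum. RNA-seq libraries came from 12 samples of this line, 3 in each of 4 groups. In the knockdown group (KD) the lentivirus vector LV3 brought in a mixture of 3 shRNAs against the long non-coding RNA lncRNA5251, and its control 3NC had a control shRNA in the same vector. Cells labelled lncRNA5251 overexpression (OV) received the vector LV5 with the full lncRNA5251, and their control 5NC received LV5 alone. The supplementary methods for these cells name lncRNA8276 and 2 shRNAs per position instead, and the sample labels, which name lncRNA5251, were followed. All groups share 1 cell line and a lentivirus vector, and the vector differs between the KD pair and the OV pair. Nothing in the labels says that libraries of a group came from separate cultures, so p-values measure the spread between these libraries, which may be technical.

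Gas6 and Pros1 are secreted proteins with a Gla domain, whose glutamates are carboxylated in a step that needs vitamin K. The Gla domain binds phosphatidylserine on the surface of dying cells or membrane fragments, and the other end of the ligand binds a TAM receptor, named after Tyro3, Axl and Mertk. The receptors are tyrosine kinases that drive the uptake of dying cells, survival signals through PI3K and AKT, and damping of inflammation. In the testis, Sertoli cells use them to clear dying germ cells and residual bodies. Axl binds Gas6 only, while Tyro3 and Mertk bind Gas6 and Pros1.

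The upstream promoter sequences of both ligands and of the most abundant receptor are shown because these 3 genes carry most of the values below. Each is the 250 bases before the transcription start in RefSeq on genome build GRCm38.p6, written 5′ to 3′ on the strand of the gene. Capitals mark the GC box GGGCGG on either strand. The Gas6 window is chr8:13494536-13494785 on the minus strand, the Pros1 window is chr16:62854057-62854306 on the plus strand, and the Axl window is chr7:25788734-25788983 on the minus strand.
Gas6: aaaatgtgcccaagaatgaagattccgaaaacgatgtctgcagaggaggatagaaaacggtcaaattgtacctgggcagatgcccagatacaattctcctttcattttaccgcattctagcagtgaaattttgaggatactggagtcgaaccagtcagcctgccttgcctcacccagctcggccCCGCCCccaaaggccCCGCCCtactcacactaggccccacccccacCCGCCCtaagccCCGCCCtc
Pros1: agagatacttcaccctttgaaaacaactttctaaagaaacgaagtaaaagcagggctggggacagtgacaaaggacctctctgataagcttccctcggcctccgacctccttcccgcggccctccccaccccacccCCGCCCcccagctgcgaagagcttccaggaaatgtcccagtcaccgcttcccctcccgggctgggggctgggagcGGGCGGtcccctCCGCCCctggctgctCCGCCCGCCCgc
Axl: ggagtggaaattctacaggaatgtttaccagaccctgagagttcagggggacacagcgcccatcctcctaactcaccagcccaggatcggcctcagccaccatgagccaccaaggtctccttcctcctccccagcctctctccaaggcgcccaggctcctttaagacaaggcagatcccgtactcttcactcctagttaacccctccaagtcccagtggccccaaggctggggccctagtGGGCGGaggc
The Gas6 window held 4 GC boxes, the Pros1 window 5 and the Axl window 1, with overlapping matches counted separately. The windows of Tyro3 and Mertk, not shown, held 3 each. Of 32851 mouse promoter windows of the same length, 32.7% held at least 1. The AP-1 letters TGANTCA were in 0 of the 5 windows and in 6.75% of all windows. The TEAD letters GGAATG were in the Axl window once and in 12.6% of all windows. The E box CANNTG was in the Gas6 and Pros1 windows once each and in 66.2% of all windows. Both strands were searched for each motif, and a match is a description of the letters and not a bound site.

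The genes lie on 4 chromosomes in the GENCODE annotation on GRCm38, which may not be the gene set behind the deposited values. Gas6, on chromosome 8, spans 13465374 to 13494490 on the minus strand and has 1 transcript, with 15 exons and 2548 bases. Pros1 spans 62854307 to 62929346 on the plus strand of chromosome 16. Axl, on chromosome 7, spans 25757273 to 25788705 on the minus strand. Tyro3 and Mertk are both on the plus strand of chromosome 2, from 119797733 to 119818104 and from 128698956 to 128802894. The gene Tmem255b on the opposite strand shares 34 of the 2548 exonic bases of Gas6, and its own RPKM was between 0 and 0.580 in the libraries. The antisense gene Gm14011 lies within Mertk without a shared exonic base.

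The 3 knockdown shRNAs are shown because a sequence match to a member would touch every KD value. They are given in the sense direction, as the mRNA strand reads. Capitals mark the 7 bases that would pair with bases 2 to 8 of the antisense strand, if that strand is the guide.
shRNA 1: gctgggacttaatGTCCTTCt
shRNA 2: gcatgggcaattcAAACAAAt
shRNA 3: gcttattatgcatCGTAAACc
None of the 3 sequences had an exact match in a transcript of the 5 genes, and each matched 1 gene only among 141767 transcripts, Purb. The 7 bases of shRNA 1 occurred in the mRNA of Pros1 once and in those of Axl and Mertk 2 times each, and 22.3% of 21877 mRNAs held them. The 7 bases of shRNA 2 occurred 2 times in Pros1 and once each in Tyro3 and Mertk, against 37.5% of mRNAs. Those of shRNA 3 occurred in none of the 5 mRNAs and in 2.27% of all. Gas6 held none of the 3 heptamers.

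Values are RPKM, reads scaled to gene length and to the size of the library, so levels of different genes are per length. The deposited values keep no read numbers. From the step between low values and the annotated mRNA lengths, the libraries were estimated at 11800000 to 13700000 reads. On that estimate a library held 965 to 3497 reads of Gas6 and 3443 to 4770 of Axl, but 44 to 116 of Mertk. LncRNA5251 itself was not analysed here. Purb, which the shRNAs match, was at 8.79 to 10.2 RPKM in KD, 32.9 to 34.1 in 3NC and 29.2 to 32.1 in 5NC. In the libraries labelled OV it was at 23.9, 24.2 and 33.2, so that replicates 1 and 2 lay below 5NC and replicate 3 above it. Germ cell genes were mostly near 0 in these cells. Of 19 spermatogonial markers in the table, 14 were below 1 RPKM in each group, among them Gfra1, Ddx4 and Dazl, with Ret, Nanos2, Kit and Pou5f1 at 0 in each library. Etv5, Uchl1, Itga6 and Cd9 were above that level in each library, and Id4 was between 0.830 and 1.82. Of 13 Sertoli markers 5 reached 1 RPKM, including Wt1 and Gata4, while Sox9 and Amh did not. Macrophage markers summed to 1.97 to 6.92 RPKM and endothelial markers to 0.390 to 1.05. Mesenchymal markers differed in level, with 8 of 9 at 1 RPKM or more in a group. Vim, Col1a1, Col3a1 and Dcn had the highest means. Pdgfra and Pdgfrb had no group mean above 1.46 RPKM, and Col1a2, the partner chain of Col1a1, none above 0.540.

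**Figure D1:**
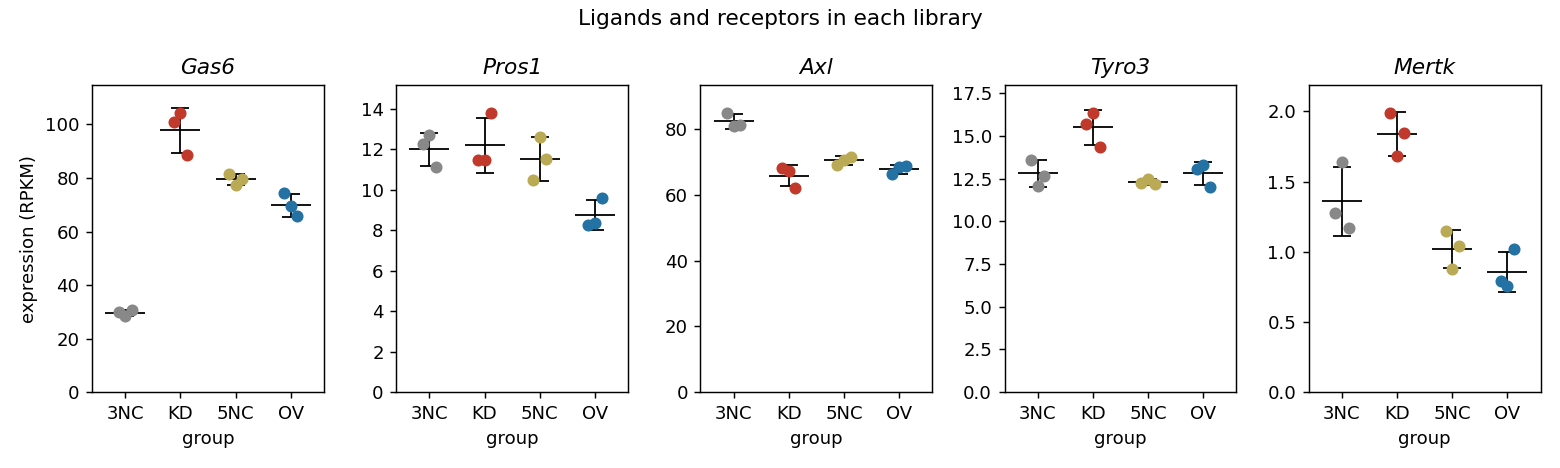
Expression in RPKM of the 2 ligands and the 3 receptors in each library, by group (points, 3 libraries a group), with the mean and the SD (bars); each panel has its own axis from 0. Gas6 was at 28.6 to 30.8 in 3NC and at 65.8 or above in the other groups, while Axl was highest in 3NC.

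Gas6 was the more abundant ligand, and its level differed most between the groups. The 3NC libraries were at 29.8, 28.6 and 30.8 RPKM, and the KD libraries at 100.7, 104.3 and 88.4. The 5NC libraries were at 81.6, 77.5 and 79.5, and the OV libraries at 74.2, 69.5 and 65.8. The order of the groups was therefore 3NC, OV, 5NC and KD, and no neighbours in that order overlapped. The control means were 29.7 ± 1.12 RPKM for 3NC and 79.5 ± 2.09 for 5NC, and KD and OV averaged 97.8 ± 8.35 and 69.8 ± 4.22 (SD, n = 3 each). KD was 3.29-fold of 3NC, a log2 difference of 1.68 (standard error 0.06). That is the difference by which Gas6 was chosen, and it is given without a test. The other control, 5NC, was 2.68-fold of 3NC, with a log2 difference of 1.39 (standard error 0.06). Both comparisons share the 3NC libraries. With 5NC in place of 3NC as the control, the log2 difference of KD was 0.29.

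Other measures moved with the low Gas6 of 3NC. The summed RPKM of the mesenchymal markers was 852 to 896 in 3NC and 1173 to 1213 in 5NC, 974 to 1071 in KD and 1233 to 1314 in OV. The markers did not move together. Col1a1 was at a mean of 256 in 3NC and 381 in 5NC, and Col3a1 and Dcn were also lower in 3NC, while Vim was at 536 and 537 and Pdgfra was higher in 3NC, at 1.32 against 0.877. The macrophage markers summed to 5.43 to 6.92 in 3NC and to at most 4.80 in the other groups. Most of that sum was Cd68, at a mean of 5.05 in 3NC, while Lyz2 had its lowest mean there and the defining markers Csf1r, Itgam and Ptprc stayed below 1 RPKM throughout. In bulk RNA, a different share of cells of one type and a different amount of RNA per cell cannot be told apart, and the part of these differences in the Gas6 values was not tested.

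OV against 5NC is not the comparison by which Gas6 was chosen, although the set was chosen with earlier results of these data known. Gas6 fell in OV, by 0.19 on the log2 scale (95% interval -0.32 to -0.06, limma, adjusted p = 0.0412 by the Benjamini-Hochberg method over 11435 genes). Each OV library lay below each 5NC library, for which the two-sided exact permutation p was 0.1, and 3 libraries against 3 can give none smaller. The call was close to the threshold. It was lost in 6 of 11 alternatives, among them the fits without any 1 of the 5NC libraries or without OV replicate 2 or 3, where the adjusted p from limma was between 0.079 and 0.116.

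Pros1, which is also the protein S of the blood clotting system, overlapped between 3 of the groups and stood lower in OV. Its RPKM was 12.3, 12.7 and 11.1 in 3NC, 11.4, 11.4 and 13.8 in KD, and 10.5, 12.6 and 11.5 in 5NC. The OV libraries were at 8.28, 8.35 and 9.59, below each library of the other groups, whose values overlapped. Pros1 fell in OV against 5NC by 0.36 on the log2 scale (95% interval -0.55 to -0.18, adjusted p = 0.0106 from limma). The group means were 8.74 ± 0.737 and 11.5 ± 1.09 RPKM (SD, n = 3 each), and the exact permutation p was 0.1. Without 5NC replicate 2 or OV replicate 2 the adjusted p of limma was 0.0567 and 0.0505. The log2 difference of KD against 3NC was 0.02 (95% interval -0.16 to 0.20), and that of 5NC against 3NC was -0.06 (95% interval -0.24 to 0.13). Both ligands together thus stood lower in OV than in 5NC, at 78.6 ± 3.61 against 91.1 ± 1.0 RPKM (SD, n = 3 each, exact permutation p = 0.1).

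Axl was the most abundant of the 3 receptors in each library. It was at 85.0, 80.9 and 81.4 RPKM in 3NC and at 68.2, 67.3 and 62.2 in KD. In 5NC it was at 69.2, 70.7 and 71.7, and in OV at 66.3, 68.6 and 68.7. The 3NC libraries were the highest, 5NC came next without overlap, and OV and KD overlapped each other. KD was 0.799-fold of 3NC (log2 difference -0.32, standard error 0.04) and 5NC was 0.855-fold of 3NC (log2 difference -0.22, standard error 0.04). Axl was therefore highest in the group where its ligand Gas6 was lowest, over groups of which 2 comparisons share the same control. Against 5NC as the control, the log2 difference of KD was -0.10. OV differed from 5NC by -0.05 (95% interval -0.15 to 0.04, adjusted p = 0.395 from limma), although its libraries lay just below those of 5NC.

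Tyro3 was about a level of its own, well below Axl and well above Mertk. Its libraries were at 13.6, 12.1 and 12.7 RPKM in 3NC, 15.7, 16.3 and 14.3 in KD, 12.2, 12.5 and 12.2 in 5NC, and 13.1, 13.3 and 12 in OV. The KD libraries were above those of each other group, and the other 3 groups overlapped. KD was 1.21-fold of 3NC (log2 difference 0.26, standard error 0.06). OV differed from 5NC by 0.05 (95% interval -0.08 to 0.19, adjusted p = 0.584 from limma).

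Mertk, the receptor best known from phagocytes, was close to the lower limit of the filter. The control libraries were at 1.28, 1.64 and 1.17 RPKM (3NC) and at 1.15, 0.880 and 1.04 (5NC), the KD libraries at 1.99, 1.68 and 1.85, and the OV libraries at 0.790, 0.760 and 1.02. KD was above the other groups, 3NC came next, and 5NC and OV overlapped. The gaps were narrow, with 1.68 in KD against 1.64 in 3NC, and 1.17 in 3NC against 1.15 in 5NC. The log2 difference of KD against 3NC was 0.27 (standard error 0.10). It was 0.19 with quantile normalization, 0.42 with a pseudocount of 0.1, and 0.49 against 5NC as the control. The difference of OV against 5NC was -0.12 (95% interval -0.33 to 0.08, adjusted p = 0.359 from limma), and that of 5NC against 3NC was -0.22 (95% interval -0.42 to -0.02), -0.38 with a pseudocount of 0.1 and -0.14 without 3NC replicate 2.

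**Figure D2:**
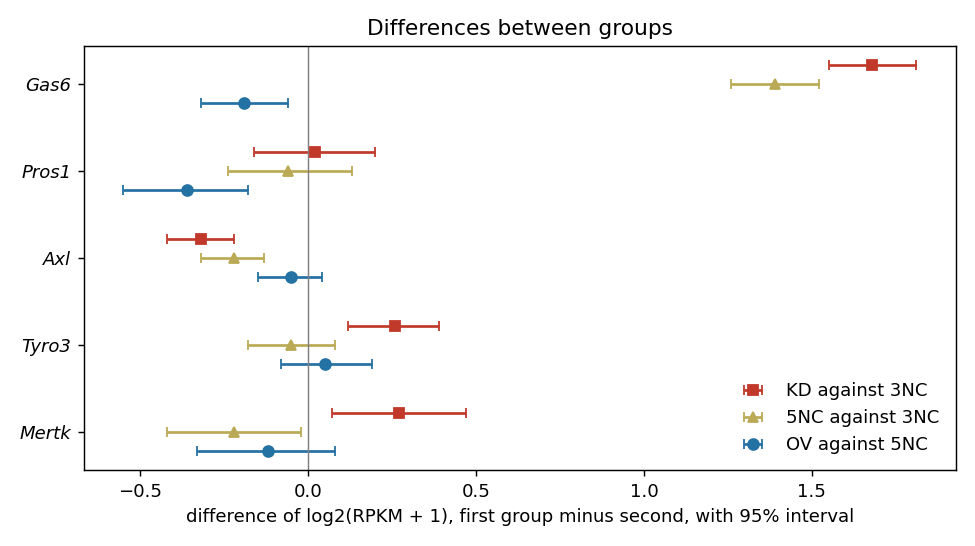
Differences of log2(RPKM + 1) between groups for the 5 genes, first group minus second, with 95% intervals from limma; points right of 0 were higher in the first group. In OV against 5NC the intervals of Gas6 and Pros1 lie below 0 and those of the 3 receptors include 0, while the KD value of Gas6, by which it was chosen, is at 1.68.

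Counted over the 5 genes, 2 were called lower and 0 higher in OV against 5NC at an adjusted p of at most 0.05. Of all genes tested, 13.9% were called lower and 8.07% higher in that comparison, and 36.7% had libraries that did not overlap between the groups, as did Gas6, Pros1 and Axl. The rule of the study was an adjusted p of at most 0.001 with an absolute log2 difference of at least 1. The study applied it with the package DEGseq and reported genes called both higher and lower in OV. Here only its cut-offs were taken, on limma values of log2(RPKM + 1), so the counts are not those of the study. They called 0% of all genes in OV against 5NC, while 4240 genes had an unadjusted p under 0.05 in limma. The libraries of KD and 3NC did not overlap for 4 of the 5 genes, with Gas6, Tyro3 and Mertk higher and Axl lower, and 62.8% of all genes had libraries that did not overlap. Between 5NC and 3NC they did not overlap for 3 of the 5, Gas6, Axl and Mertk, against 69.3% of all genes.

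The make-up of the receptors differed in KD. Axl held 79.2% ± 0.291 of the summed RPKM of the 3 receptors in KD, against 85.4% ± 0.228 in 3NC, 84.1% ± 0.306 in 5NC and 83.3% ± 0.714 in OV (SD, n = 3 each). Tyro3 held 18.6%, 13.2%, 14.7% and 15.7% in the same order, and Mertk at most 2.36% in any library. The Axl share of the KD libraries, 78.9% to 79.4%, did not overlap with that of any other group. OV and 5NC differed by -0.848 percentage points (two-sided p = 0.2 in the exact permutation test).

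The ligands outweighed the receptors in KD and 5NC, and stood below them in 3NC. Gas6 made up 71.2% ± 2.16 of the summed ligand RPKM in 3NC and 87.3% ± 1.33 in 5NC, and it made up 88.8% ± 2.0 in KD and 88.8% ± 1.39 in OV. The ratio of the ligand sum to the receptor sum was 0.433 ± 0.00991 in 3NC, 0.965 ± 0.0569 in OV, 1.09 ± 0.0254 in 5NC and 1.32 ± 0.0298 in KD (SD, n = 3 each). OV was lower than 5NC by 0.122, with no overlap of the libraries (exact permutation p = 0.1). These are ratios of mRNA per length, not of protein.

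**Figure D3:**
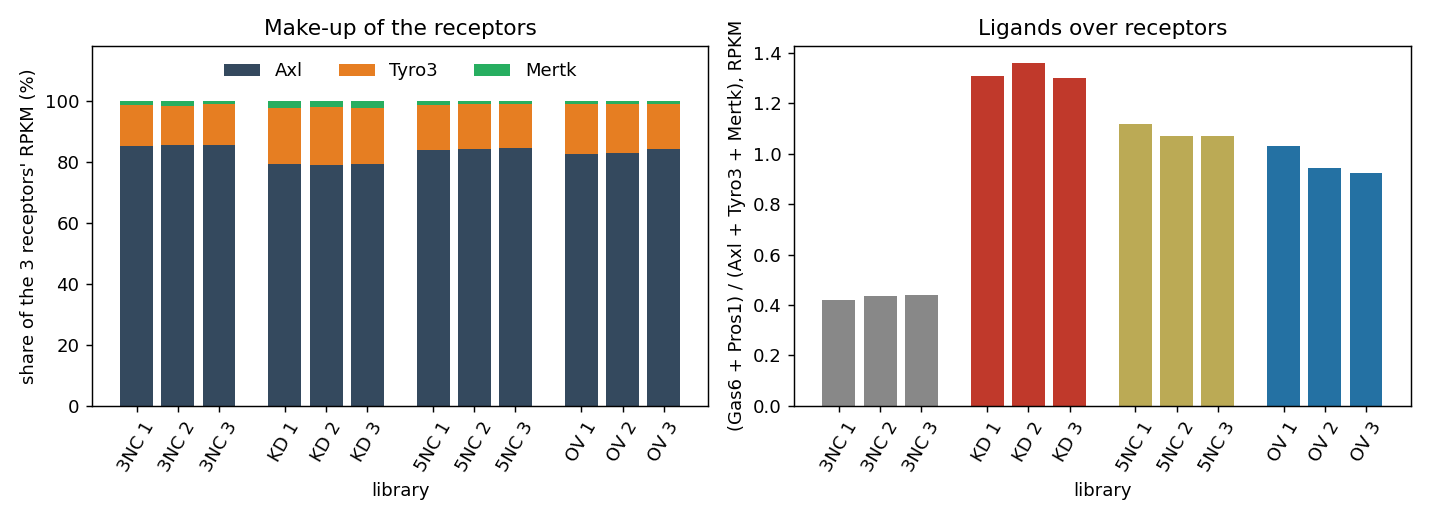
Left, the share in percent of Axl, Tyro3 and Mertk in their summed RPKM for each library; right, the summed RPKM of Gas6 and Pros1 divided by that of the 3 receptors. The Tyro3 share was 18.2% to 19.1% in KD, and the ratio of ligands to receptors was 0.421 to 0.440 in 3NC against 0.923 or more elsewhere.

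Among the genes tested, Axl was expressed strongly in each group, and the place of Gas6 varied with the group. The mean of Axl was above that of 90.2% of genes in 3NC and 88.2% in 5NC, and of 87.4% in KD and 87.3% in OV. Gas6 was above 72.3% of genes in 3NC and 89.6% in 5NC, 92.1% in KD and 87.7% in OV. Averaged over the 12 libraries, Tyro3 was above 48.6%, Pros1 above 43.4% and Mertk above 4.08%. Of 56 receptor tyrosine kinases in the table, Axl had the highest mean over all libraries, 71.7 RPKM. Next came the collagen receptor Ddr1 at 66.6, the ephrin receptor Epha2 at 57.0, the Wnt coreceptor Ptk7 at 46.6 and the Wnt receptor Ryk at 37.9. The first place did not hold in each group. Axl was first in 3NC and KD, where its libraries did not overlap with those of the next receptor. In 5NC it was second to Ddr1, at 73.6 to 75.2 RPKM, and in OV it was behind Ddr1, at 80.9 to 86.5, and Epha2, at 71.0 to 73.8, without overlap. Tyro3 was the 9th receptor in 3NC, KD and OV and the 10th in 5NC, and Mertk was between the 26th and the 32nd.

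**Figure D4:**
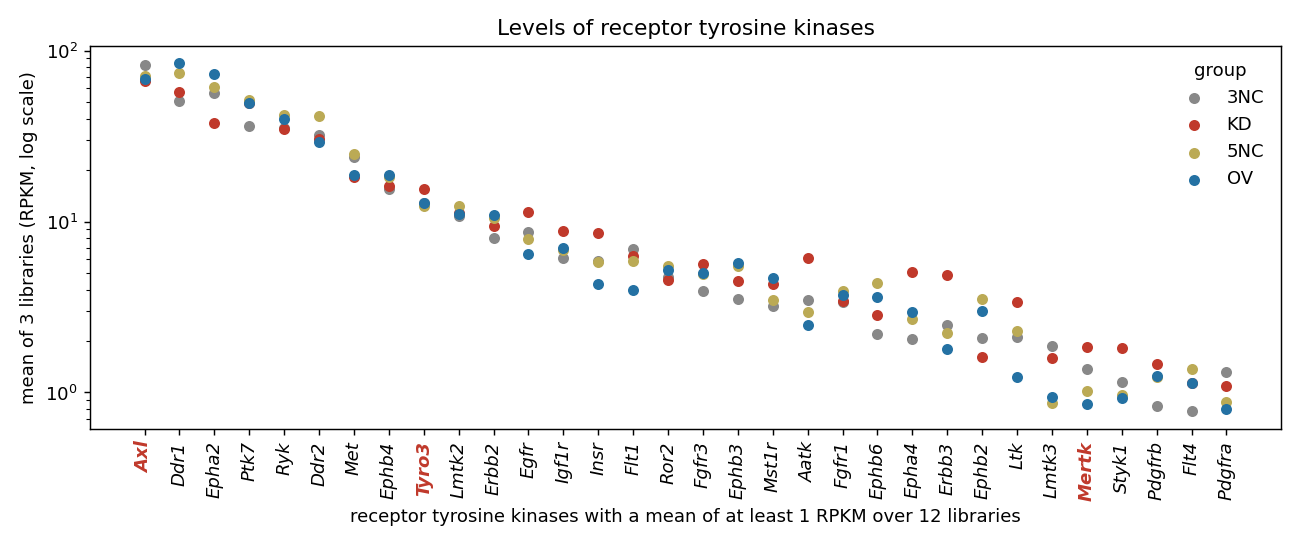
Mean RPKM of 3 libraries per group (points, log axis) for the receptor tyrosine kinases with a mean of at least 1 RPKM over 12 libraries, ordered by that mean, with the TAM receptors in red. Axl leads at 71.7 RPKM, Tyro3 is 9th and Mertk 28th.

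Several other receptor tyrosine kinases stood higher in KD than in 3NC, where Axl was highest, and several also stood higher in 5NC than in 3NC. Of 30 tested, 17 were called higher and 3 lower in KD against 3NC by limma, where 31.9% of all genes were called higher and 23.5% lower. Their median log2 difference was 0.25, against 0.04 over all genes. Epha4 rose from 2.06 to 5.04 RPKM (log2 difference 0.98) and Erbb3, a neuregulin receptor, from 2.50 to 4.86 (0.74), while Epha2 fell from 56.1 to 37.8 (log2 difference -0.56). With 5NC as the control the split was 11 higher and 10 lower, where 34% and 31.4% of all genes were called. Between the controls, 5NC against 3NC, 14 were higher and 2 lower, where 31% and 25.6% of all genes were called. The median there was 0.18 against 0.02, so part of the skew in KD went with the shared 3NC libraries. OV against 5NC gave 2 higher and 6 lower, against 8.07% and 13.9% of all genes, with a median of -0.06 against -0.03. The collagen receptor Ddr2 fell there from 41.4 to 29.3 RPKM (log2 difference -0.49, adjusted p = 0.00152 from limma), and Met, the receptor of hepatocyte growth factor, from 24.7 to 18.6 (log2 difference -0.41), a call lost in 4 of 11 alternatives.

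Genes around the pathway were taken from 7 lists with 90 genes, of which 64 were tested. In KD against 3NC, 29 were called higher and 9 lower by limma, where 31.9% and 23.5% of all genes were called, and the median log2 difference was 0.12 against 0.04 over all genes. With 5NC as the control, 23 were higher and 15 lower in KD, against 34% and 31.4% of all genes. In OV against 5NC, 10 were higher and 12 lower, where 8.07% and 13.9% of all genes were called, and the median was -0.05 against -0.03. The shares over all genes hold for the counts of the single lists that follow. These OV counts rested on single libraries, and the 12 became 2 without OV replicate 2 and 20 without OV replicate 3. In 5NC against 3NC, 18 were higher and 16 lower, where 31% and 25.6% of all genes were called, and the median was 0.01 against 0.02 over all genes. The cut-offs of the study, on limma values, called none of the 64 in KD against 3NC, where they called 1.57% of all genes. In 5NC against 3NC they called 2, and 2.61% of all genes.

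Ligands and their carboxylation came first in the pathway. Of 3 further TAM ligands only Lgals3 was tested. This galectin was at 195 RPKM in 3NC and fell in KD to 167 (log2 difference -0.22) and in 5NC to 98.7 (log2 difference -0.97), and it rose in OV from 98.7 to 115 (log2 difference 0.22, adjusted p = 0.00515 from limma). Of 7 tested genes of the vitamin K cycle and of gamma-carboxylation, 1 was higher and 2 lower in KD, and 0 of 7 were called in OV against 5NC by limma. Nqo1, a quinone reductase that can reduce vitamin K, fell from 23.2 to 11.9 RPKM in KD (log2 difference -0.90) and stood at 8.51 in 5NC. Against 5NC as the control, KD was higher for Lgals3 (log2 difference 0.75) and Nqo1 (0.44), so both directions turned. Calu, an inhibitor of the carboxylation step, rose in KD from 387 to 478 RPKM (log2 difference 0.30). Other Gla proteins were scarce, with 2 of 11 in the table tested. Of these Prrg1 rose in KD from 4.50 to 6.43 RPKM (log2 difference 0.43).

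Axl and Mertk are cut from the cell surface by the proteases Adam10 and Adam17, and the inhibitor Timp3 acts on both proteases. Of 5 tested shedding genes, 3 were higher and 0 lower in KD against 3NC, against 31.9% and 23.5% of all genes. For OV against 5NC the counts were 1 and 3, against 8.07% and 13.9%. One of the 3 higher in KD, Adam10 (log2 difference 0.23), lost its call in 7 of 12 alternatives. Another, Rhbdf1 (0.33), had overlapping libraries and lost its call without KD replicate 2 (adjusted p = 0.0516 from limma). Timp3 was at 32.5 RPKM in 3NC and 125 in 5NC, and at 46.2 in KD and 93.2 in OV. It rose in KD against 3NC (log2 difference 0.49) and fell in OV against 5NC (-0.42, adjusted p = 0.000360 from limma), and 5NC was higher than 3NC by 1.91. Taken against 5NC, however, KD gave a log2 difference of -1.41, so the direction of Timp3 in KD turned with the control. Adam10 fell in OV from 48.1 to 37.7 RPKM (log2 difference -0.36, adjusted p = 0.0116) and Adam17, with overlapping libraries, from 25.7 to 21.1 (-0.28, adjusted p = 0.0192), while Rhbdf2, a partner of Adam17, rose from 18.5 to 23.1 (0.30), all by limma. The OV call of Adam10 was lost in 3 of 11 alternatives (adjusted p from limma of 0.0517 to 0.0577) and that of Adam17 in 5 (0.0646 to 0.0910). Both were lost without 5NC replicate 2 and without OV replicate 1 or 2, and Adam17 also without 5NC replicate 3 and in the fit of 6 libraries.

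Downstream of the receptors, 29 adaptors and effectors were tested. In KD 10 were higher and 5 lower, with a median log2 difference of 0.03, and in OV 5 were higher and 5 lower, with a median of -0.04. The adaptor Shc1 fell in KD from 31.5 to 23.8 RPKM (-0.39, but 0.10 against 5NC) and the docking protein Bcar1 from 75.4 to 58.1 (-0.37). Elmo1, which acts with Dock1 in engulfment, was higher in 5NC than in 3NC, at 3.26 against 1.37 RPKM (log2 difference 0.85). Dock1 itself fell in OV from 10.8 to 8.88 (log2 difference -0.27), a call lost in 4 of 11 alternatives. Cbl, a ubiquitin ligase of activated receptors, was lower in OV by 0.59 on the log2 scale, with libraries that overlapped, and lost its call in 2 of 11.

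Most of the tested receptors and bridges for dying cells were called higher in KD. Of 11 tested, 8 were higher, 0 lower and 3 not called in KD against 3NC, where 31.9% of all genes were higher, and the median log2 difference was 0.22 against 0.04 over all genes. Of the 4 with the largest difference, Itgb3, Lrp1, Itgb5 and Anxa1, Itgb5 lost its call with 5NC as the control (adjusted p = 0.53 from limma), and Lrp1 was at a log2 difference of 0.19 there. OV against 5NC gave 3 higher and 2 lower. Integrin beta 3, Itgb3, a partner of integrin alpha V in uptake, rose in KD from 3.79 to 8.19 RPKM (log2 difference 0.94). The engulfment receptor Lrp1 rose there from 12 to 16.1 (0.40) and the annexin Anxa1 from 393 to 481 (0.29). In OV, Calr, an eat-me signal when it is on the cell surface, rose from 1053 to 1525 RPKM (log2 difference 0.53, adjusted p = 1.98e-06 from limma). Anxa1 rose in OV from 315 to 398 (0.34), whereas Itgav fell from 51.2 to 39.8 (-0.37) and Lrp1 from 14.0 to 11.4 (-0.27). The Itgav call (adjusted p = 0.0205 from limma) was lost in 6 of 11 alternatives, without 5NC replicate 2 or 3, without OV replicate 1 or 2, without the filter and in the fit of 6 libraries, at 0.05 to 0.103. That of Lrp1 was lost without OV replicate 1.

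The exposure of phosphatidylserine, which the ligands bind, depends on flippases and scramblases. Of 9 tested genes, 6 were higher and 1 lower in KD against 3NC, against 31.9% and 23.5% of all genes, and the median log2 difference was 0.34 against 0.04. The flippase Atp8a1 rose from 1.09 to 2.33 RPKM (0.67), and Tmem30a, the subunit that flippases share, from 55.8 to 85.2 (0.60). Nptn, a partner of the scramblase Xkr8, rose from 79.2 to 114 (0.51), and the scramblase family member Plscr1 fell from 40.1 to 30.9 (-0.37). Lower in OV than in 5NC were 2, and 0 were higher, against 13.9% and 8.07% of all genes. Tmem30a fell there from 55.1 to 44.5 RPKM (-0.31), a call lost without 5NC replicate 2 and without OV replicate 1 or 2. In 5NC against 3NC 1 was higher and 1 lower, and the scramblase Ano6 was at 41.8 against 29.3 RPKM (0.50).

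**Figure D5:**
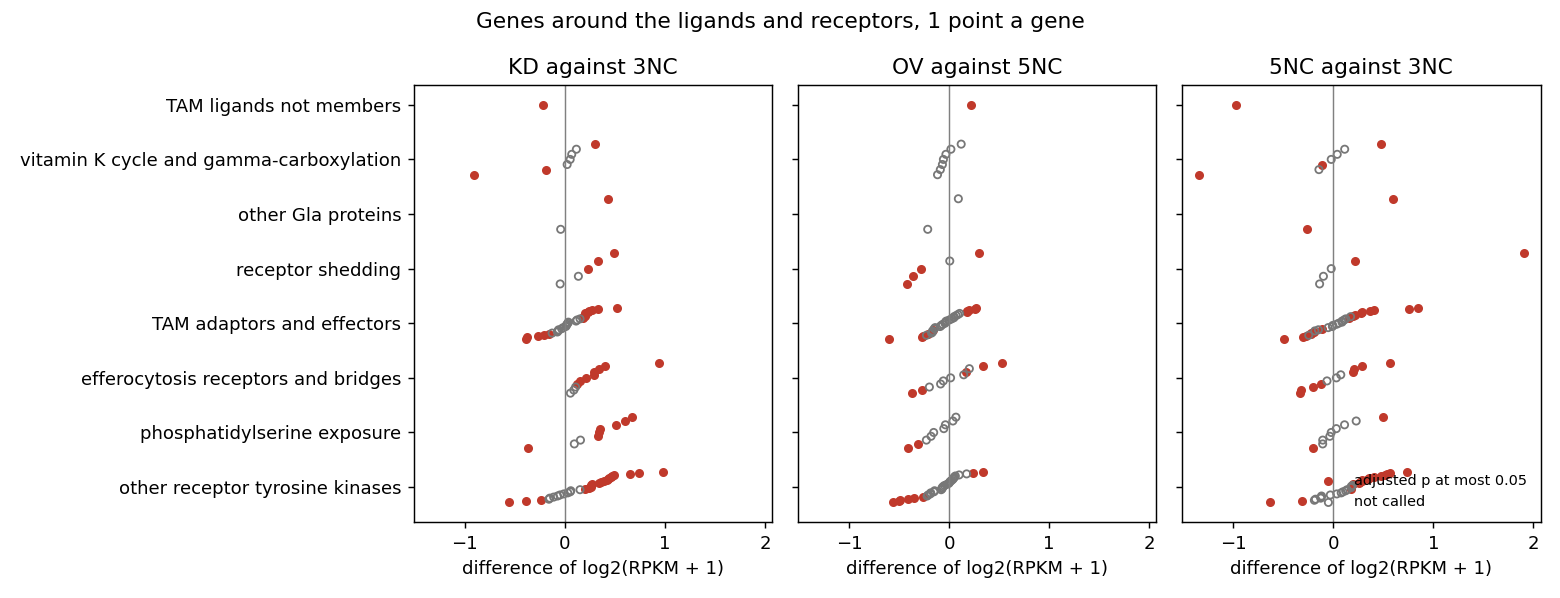
Differences of log2(RPKM + 1) for the tested genes of the 7 pathway lists and of the other receptor tyrosine kinases, 1 point a gene, in 3 comparisons; filled points passed an adjusted p of 0.05 in limma. In KD against 3NC 8 of 11 efferocytosis genes and 6 of 9 phosphatidylserine genes were called higher, and in 5NC against 3NC Timp3 lies farthest right of the genes plotted, at 1.91.

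Gas6 shares its name with genes found in growth-arrested fibroblasts, which do not form 1 gene family. Of 6 other tested genes of that name, 2 were higher and 2 lower in KD against 3NC. Pmp22, a membrane protein of myelin also known as Gas3, rose from 69.1 to 166 RPKM (log2 difference 1.26), and Gas8 fell from 15.7 to 11.9 (-0.37). The other lower gene, Gas2l1 (-0.20), had overlapping libraries and lost its call in 5 of 12 alternatives. Pmp22 was lower in OV than in 5NC, at 52.3 against 58.8 RPKM (log2 difference -0.17), a call lost in 3 of 11 alternatives. Gas1 was at 2.09 RPKM in 3NC and 2.61 in KD but at 14.0 in 5NC, a log2 difference of 2.28 between the controls. It rose in KD against 3NC (0.22), a call lost in 4 of 12 alternatives, and KD against 5NC gave -2.05.

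The genes with the pattern most like that of Gas6 were sought by Pearson's r of log2(RPKM + 1) over the 12 libraries. They were St3gal5 (r = 0.989), Ext2 (0.982), Cd81 (0.981), Gstz1 (0.980) and Il18 (0.979). The most opposite were LOC100044068 (-0.991), Lrrc8d (-0.989) and Hmga2 (-0.987). Those most like Axl were Prpf8 (r = 0.978), LOC105244034 (0.968), Kpna6 (0.966), Zbtb7a (0.962) and Gm46257 (0.962). Between the members, r was -0.909 for Gas6 and Axl and 0.672 for Pros1 and Mertk. These values include the differences between the 4 group means, and for pairs of members r within groups is not given. In KD the library lowest in Gas6 was also lowest in Axl. In 5NC and OV the library highest in Gas6 was lowest in Axl. Within the groups, r with Gas6 was 0.802 for Ext2, 0.659 for Il18, 0.513 for Cd81, 0.263 for St3gal5 and -0.221 for Gstz1. It was -0.834 for LOC100044068, -0.594 for Hmga2 and -0.284 for Lrrc8d. With Axl it was between 0.459, for Gm46257, and 0.806, for Prpf8. Of the genes most like Gas6 over the 12 libraries, 0 of 5 were also among the first 5 by r within groups.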

How the data were processed

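Total RNA per the labels, enriched for mRNA per the methods, was sequenced from 12 libraries of C18-4 cells. The authors mapped reads to reference genes with SOAPaligner and deposited RPKM values for 17576 genes. The genome build and gene set are not given in the sources used here, and reads shared by related genes depend on that mapping. RPKM keep no read numbers, so no count test was used.

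The deposited RPKM were put on the scale log2(RPKM + 1), which understates differences of low genes. A gene was tested where 3 or more libraries had 1 RPKM or more, which left 11435. The 12 libraries entered 1 fit of limma 3.58.1 (R 4.3.3) with group as the term and a trend of the variance with intensity, and adjusted p-values are Benjamini-Hochberg values. The fit was also run on simulated data with independent noise for each gene. Those data hold no deviation shared by the genes of a library, so that run cannot show how the fit deals with one. Exact permutation tests of 3 against 3 libraries cannot go below 0.1.

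The members and gene lists were chosen with earlier results of these data known. Genes named were taken from the members, at most 4 called genes with the largest difference per list and comparison, the 5 receptors of highest mean, and the 5 genes most like Gas6 or Axl (3 most opposite to Gas6), and not each gene that this rule picks is described. Alternatives were another pseudocount, no filter, quantile normalization, a fit of 6 libraries, a replicate block, left-out libraries, the rule of the study and 5NC as the control. Sequences are from RefSeq and from the supplementary list of shRNAs, and 5 of 5 members matched the promoter table. Protein sequences were not used here. The plots used matplotlib 3.10.9 and Python 3.11.15.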

Additional observations from a re-analysis of the deposited data

Results flagged for a closer look

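Of 54 genes looked at, the 5 members and the genes named from lists, 17 had all KD libraries on one side of 3NC and all OV libraries on the opposite side of 5NC, which is 31.5%. Of the 11435 genes tested, 17% had that pattern. The genes named were taken from those called, so the 2 shares do not compare like with like. The difference between the 2 effects was not tested.

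Among the members Gas6 was flagged, with a log2 difference of 1.68 in KD against 3NC, by which it was chosen, and -0.19 in OV against 5NC. Of the named genes, 11 had KD libraries above 3NC and OV libraries below 5NC. Not all of these differences passed the test: Prrg1, Erbb3, Aatk and Ephb6 were not called in OV against 5NC (adjusted p from limma of 0.0906, 0.0632, 0.103 and 0.0883), nor was Dock1 in KD against 3NC (0.145). Their log2 differences in KD against 3NC were 0.43 for Prrg1, 0.49 for Timp3, 0.23 for Adam10, 0.40 for Lrp1, 0.60 for Tmem30a, 1.26 for Pmp22, 0.74 for Erbb3, 0.65 for Aatk, 0.12 for Dock1, 0.49 for Ltk and 0.26 for Ephb6. In OV against 5NC they were -0.21 for Prrg1, -0.42 for Timp3, -0.36 for Adam10, -0.27 for Lrp1, -0.31 for Tmem30a, -0.17 for Pmp22, -0.21 for Erbb3, -0.19 for Aatk, -0.27 for Dock1, -0.56 for Ltk and -0.22 for Ephb6. The other 5 had KD libraries below 3NC and OV libraries above 5NC, of which Nqo1 was not called in OV (adjusted p = 0.138 from limma). In KD against 3NC these were at -0.22 for Lgals3, -0.90 for Nqo1, -0.39 for Shc1, -0.37 for Bcar1 and -0.56 for Epha2. In OV against 5NC they were at 0.22 for Lgals3, 0.12 for Nqo1, 0.18 for Shc1, 0.20 for Bcar1 and 0.24 for Epha2.

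Groups of 3 libraries are too small for the search for single outlying samples, so none was made.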

How the results depend on the processing

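For the 5 members, 157 of 170 alternative values gave the reported direction and call, or moved by less than the spread between replicates. Of the rest 8 lost a call, 5 moved and 0 reversed. Gas6 in OV against 5NC ranged from -0.23 to -0.14 on the log2 scale over 11 alternatives, and its adjusted p from limma, 0.0412 as reported, from 0.0188 to 0.116. Pros1 ranged from -0.43 to -0.30, with an adjusted p from limma between 0.00221 and 0.0567. The count of members called lower in OV against 5NC, 2, was 1 without the filter, between 0 and 2 without single libraries, and 0 by the rule of the study. Of the values of other named genes, 698 of 774 were unchanged in call and direction, 71 lost the call and 5 reversed. The 5 all arose with 5NC as the control for KD, where the log2 difference was 0.75 for Lgals3, 0.44 for Nqo1, -1.41 for Timp3, 0.10 for Shc1 and -2.05 for Gas1. Under the same control 23 pathway genes were called higher, not 29, and 15 lower, not 9, and the receptor tyrosine kinases called were 11 higher and 10 lower, not 17 and 3. By the rule of the study the counts of pathway genes and of receptor tyrosine kinases called were 0 in KD and in OV in both directions, and the pathway genes in 5NC against 3NC were 1 higher and 1 lower. In the fit of 6 libraries 5 pathway genes were lower in OV, not 12. Without the filter 1 receptor tyrosine kinase was higher in OV, not 2.

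Leaving out single libraries gave 25 to 27 higher and 7 to 9 lower pathway genes in KD, 5 to 12 higher and 2 to 20 lower in OV, and 13 to 17 higher and 10 to 13 lower in 5NC against 3NC. The higher count in OV was 5 without OV replicate 2 and 6 without 5NC replicate 3, and the lower count was 2 without OV replicate 2, 3 without OV replicate 1, 4 and 7 without 5NC replicates 2 and 3, and 20 without OV replicate 3. In 5NC against 3NC the 10 lower were without 5NC replicate 3. For receptor tyrosine kinases it gave 13 to 18 higher and 2 to 3 lower in KD, and 1 to 3 higher and 4 to 7 lower in OV, with 1 higher without 5NC replicate 2 or 3 or OV replicate 1. The Axl share moved by less than the spread between libraries under quantile normalization and without any single library. Of the 5 genes most like Gas6, 0 were shared with the first 5 by Spearman's rho, 5 with a pseudocount of 0.1 and 0 by r within groups; of those most like Axl, 2, 5 and 0. The causes were not tested.

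The replicate numbers are shared by the groups, but same-numbered libraries did not deviate together, with correlations between -0.178 and 0.176. With a replicate block the log2 difference of Gas6 in OV against 5NC was -0.19 (adjusted p = 0.0391 from limma) and that of Pros1 -0.36 (adjusted p = 0.0104). Among the genes named, the block changed 1 call, that of Calu in 5NC against 3NC (adjusted p = 0.0622 from limma). With it, 16 receptor tyrosine kinases were higher in KD, 9 pathway genes were higher and 11 lower in OV, and 14 were lower in 5NC against 3NC. No count of calls moved by over 1.5 times. Mertk had the fewest reads, an estimated 44 to 116 a library, and how far depth limits its values was not tested.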
